A study of Mus musculus with 12 samples.

Results

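The genes described are Nlrc4 and 9 further components of the inflammasome, namely Naip1, Naip2, Naip5, Naip6, Nlrp3, Pycard, Casp1, Il1b and Il18, taken by gene symbol from a count table of 37681 mouse genes. All 10 were in the table and all 10 had enough reads to be tested among 19399 genes. They were selected on measured values, with the difference between the genotypes in read counts already known, so their values in that comparison are given as a description and carry no p-value. RNAseq was performed on thin outer slices of kidney cortex from untreated C57BL/6 male mice, 18 months old. The TG+ group held 3 TRACK mice (TRACK/γ-HIF1αM3), a model of clear cell renal cell carcinoma in which a mutant, constitutively active HIF1α is expressed from the GGT promoter in the proximal tubules, and the TG- group held 3 wild type littermates without the transgene. Mice are named by animal number, with 43-29, 43-49 and 43-75 as TG+ and 43-26, 43-50 and 43-76 as TG-, and values are listed in this order throughout. Both kidneys of each mouse were sequenced as separate libraries, 12 in all, and the reads of the 2 kidneys were summed, so that the mouse was the replicate.

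The transgene affects the tubule cells, whereas inflammasome genes are best known from myeloid cells, and a cortex slice holds RNA of both. An inflammasome is a protein complex that assembles in the cytosol when a sensor of the NLR family meets its trigger. Nlrc4 is the sensor that answers bacterial flagellin and parts of the type III secretion apparatus, and it does so through the Naip proteins, which bind the bacterial protein and then recruit Nlrc4. Nlrp3 is a separate sensor that reacts to many signs of cell damage. Nlrp3 reaches caspase-1, encoded by Casp1, through the adaptor ASC, encoded by Pycard, whereas Nlrc4 can bind the caspase itself and also uses ASC. Caspase-1 in turn cleaves the precursors of the cytokines interleukin-1β (Il1b) and interleukin-18 (Il18). In a bulk sample such as these, fewer cells of a type and less RNA per cell cannot be told apart.

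The libraries held between 21888584 and 33704850 reads counted on genes. The unit CPM stands for reads relative to a library size that was adjusted by the TMM method, which corrects for libraries of unlike composition. As a check of the genotype, Car9, a carbonic anhydrase and HIF1α target, stood at 166, 122 and 155 CPM in the TG+ mice and at 11.7, 14.8 and 17.6 CPM in the TG- mice (adjusted p = 2.1e-05, edgeR's quasi-likelihood test). Pdk1, which inhibits pyruvate dehydrogenase, and the glucose transporter Slc2a1 were also higher, with log2 differences of 2.94 and 2.27, whereas Hif1a differed by -0.12 (adjusted p = 0.343). A gene is said to have passed the threshold when its adjusted p was below 0.01 and its fold change above 2 or below 0.5. Of all tested genes 732 (3.77%) passed it with a higher level in TG+ and 41 (0.211%) with a lower level.

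Nlrc4 (ENSMUSG00000039193) lies on chromosome 17 from 74425438 to 74459142 on the minus strand of GRCm38. Sequence just outside the gene is shown for Nlrc4, the member with the lower level in TG+, and for Casp1, the effector caspase, since the transgene encodes a transcription factor. The stretches come from the promoter windows of RefSeq (GRCm38.p6), chr17:74459143-74459358 on the minus strand and chr9:5298267-5298516 on the plus strand, and are printed 5′ to 3′ in lower case up to the outermost annotated start of the gene. Capitals mark the core of the HIF binding site (ACGTG or GCGTG) or of an ETS site (GGAAGT), each searched on both strands. The ETS core was included because the myeloid factor PU.1, encoded by Spi1, is an ETS protein.
Nlrc4: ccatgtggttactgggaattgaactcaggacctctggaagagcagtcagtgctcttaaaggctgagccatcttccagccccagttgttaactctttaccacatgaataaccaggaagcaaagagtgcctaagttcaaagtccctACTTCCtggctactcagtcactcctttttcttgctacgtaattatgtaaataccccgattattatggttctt
Casp1: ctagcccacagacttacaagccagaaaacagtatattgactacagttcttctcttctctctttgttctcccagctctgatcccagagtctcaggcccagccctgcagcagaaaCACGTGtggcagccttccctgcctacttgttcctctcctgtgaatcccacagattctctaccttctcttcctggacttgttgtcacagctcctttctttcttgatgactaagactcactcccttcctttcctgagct
In the Nlrc4 window the capitals mark an ETS core read on the opposite strand, 106 bases before the RefSeq start site, and another lay 10 bases before that site, within the part not printed. In the Casp1 window the capitals mark a palindrome that holds the HIF core on each strand, so its 2 matches overlap. All 10 members had a RefSeq window, reaching from 250 bases before to 50 bases after the start site, with 11 windows in all because Nlrp3 has 2. The HIF core was found in 3 of the 11, those of Naip1, Casp1 and 1 of Nlrp3, against 43.8% of all 32851 windows, and the ETS core in 6, those of Nlrc4, Naip2, Naip5, Naip6, Pycard and Il1b, against 23.8%. These are matches of letters and say nothing of whether a factor was bound.

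Nlrc4 mRNA was lower in the TG+ kidneys. Its level was 1.74, 2.79 and 2.09 CPM in the TG+ mice 43-29, 43-49 and 43-75, and 6.73, 8 and 6.41 CPM in the TG- mice 43-26, 43-50 and 43-76, from between 86 and 457 reads per mouse. Every TG+ mouse lay below every TG- mouse, and the groups were well apart. The means were 2.21 ± 0.533 CPM in TG+ and 7.04 ± 0.844 CPM in TG- (SD, n = 3 each), a 3.18-fold lower level, with a log2 difference of -1.67 (standard error 0.18). Over 12 other ways of computing it, including leaving out each mouse in turn, the log2 difference ranged from -1.88 to -1.54.

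**Figure D1:**
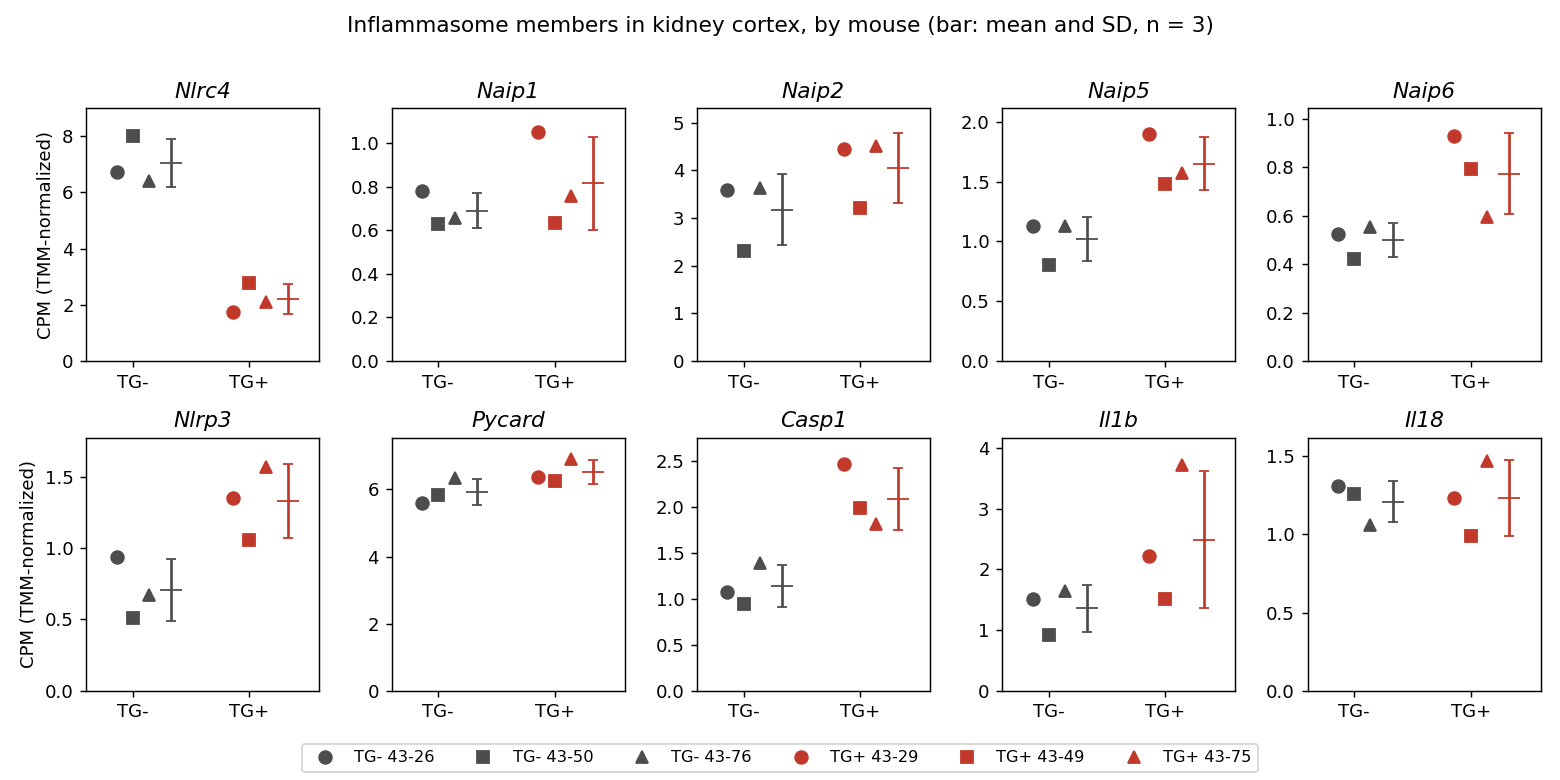
Level of each of the 10 genes in each mouse. The vertical axes give CPM and start at 0, each symbol is 1 mouse (grey TG-, red TG+), and the bar beside each group gives the mean and SD (n = 3). Nlrc4 lay between 1.74 and 2.79 CPM in TG+ against 6.41 to 8 CPM in TG-, whereas Naip5, Naip6, Nlrp3 and Casp1 lay higher in each TG+ mouse than in any TG- mouse.

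The 4 Naip genes, which encode the proteins that bind bacterial ligands for Nlrc4, did not lie lower. Naip2 codes for a receptor of the inner rod of the secretion apparatus and was the Naip gene with the most reads. Its level was 4.45, 3.21 and 4.5 CPM in TG+ and 3.59, 2.31 and 3.62 CPM in TG-, with a log2 difference of 0.35 (standard error 0.21), and the groups overlapped because 43-49 lay below 2 of the TG- mice. Without the mouse 43-50 the difference of Naip2 was 0.16. Naip1, a receptor of the needle protein, also overlapped, with levels of 1.05, 0.635 and 0.757 CPM in TG+ and 0.780, 0.630 and 0.655 CPM in TG- (log2 difference 0.24, standard error 0.24). Without the mouse 43-29 the difference of Naip1 was 0.004.

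The receptors of flagellin gave groups that were apart. Naip5 was at 1.90, 1.48 and 1.57 CPM in TG+ and at 1.13, 0.805 and 1.13 CPM in TG-, with a log2 difference of 0.70 (standard error 0.20). Naip6 was at 0.930, 0.793 and 0.597 CPM in TG+ and at 0.526, 0.420 and 0.553 CPM in TG- (log2 difference 0.63, standard error 0.24), from as few as 24 reads per mouse. For both genes every TG+ mouse lay above every TG- mouse, for Naip6 by a narrow margin between 43-75 and 43-76. Summed over the 4 genes, the Naip level was 7.29 ± 1.11 CPM in TG+ and 5.38 ± 1.05 CPM in TG- (SD, n = 3), and Nlrc4 alone went the other way.

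The 4 Naip genes stand near each other on chromosome 13, from 100144063 (the start of Naip2) to 100452869 (the end of Naip1), all on the minus strand, and are close relatives, so their reads can be hard to assign. Of all stretches of 51 bases, the read length, in the annotated transcripts, 30.9% of those of Naip1, 18.7% of Naip2, 36.1% of Naip5 and 20.9% of Naip6 occurred in a transcript of another gene as well. The largest overlap among the members was between Naip5 and Naip6, with 1113 shared stretches, and the pseudogene Naip3 shared 1231 with Naip1. The values of single Naip genes are uncertain to that extent. Nlrc4 shared 49 of its 4857 stretches (1.01%), and Nlrp3, Casp1, Il1b and Il18 shared none. Pycard shared 11.6% of its stretches, nearly all with Gm45205, an unnamed transcript that overlaps it on the other strand, and Nlrc4 overlaps the pseudogene CT033749.1.

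Nlrp3, the sensor of cell damage, was higher in each TG+ mouse. It stood at 1.35, 1.06 and 1.57 CPM in TG+ and at 0.936, 0.508 and 0.675 CPM in TG-, with means of 1.33 ± 0.259 and 0.706 ± 0.216 CPM (SD, n = 3). The groups were apart, with a log2 difference of 0.91 (standard error 0.26). Between 29 and 79 reads per mouse lay behind these values, fewer than for Nlrc4.

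The adaptor and the caspase differed from each other. On the log2 scale Pycard had the smallest spread between mice of a genotype of all members (SD 0.09). It was at 6.37, 6.24 and 6.91 CPM in TG+ and 5.59, 5.83 and 6.34 CPM in TG- (log2 difference 0.14, standard error 0.09), with the TG- mouse 43-76 above the TG+ mouse 43-49. With scaling by library size alone the difference was 0.25, in step with a median of 0.13 over all genes against 0.01 with TMM. Casp1 was at 2.47, 1.99 and 1.81 CPM in TG+ and at 1.07, 0.945 and 1.39 CPM in TG-. Every TG+ mouse lay above every TG- mouse, and the means of 2.09 ± 0.338 and 1.14 ± 0.230 CPM (SD, n = 3) gave a 1.84-fold higher level with a log2 difference of 0.88 (standard error 0.20).

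The cytokines that caspase-1 cleaves had different patterns. Il1b was at 2.22, 1.52 and 3.72 CPM in TG+ and at 1.52, 0.910 and 1.64 CPM in TG-, and the groups overlapped because 43-49 was level with 43-26 and below 43-76. Its log2 difference of 0.88 (standard error 0.35) was as large as that of Casp1 with a wider error, and without the mouse 43-75 it was 0.45. Il18 was at 1.23, 0.987 and 1.47 CPM in TG+ and at 1.31, 1.26 and 1.06 CPM in TG-, with a log2 difference of 0.02 (standard error 0.20) that lay below 0 in 2 of 12 alternatives, at the lowest -0.14 without 43-75. Reads of Il1b overlap the antisense gene Il1bos and those of Il18 overlap Bco2 and Tex12, and with no statement that counting used the strand, such reads cannot be told apart.

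Counted over the 10 members, 0 passed the threshold upward and 1, Nlrc4, downward, against 3.77% and 0.211% of all tested genes. At an adjusted p below 0.05 with no limit on the fold change, 3 were higher and 1 was lower, against 15.4% and 10.9% of all tested genes. In 4 members every TG+ mouse lay above every TG- mouse (23.4% of all genes), in 1 member below (20.8% of all genes), and in 5 the groups overlapped. The median log2 difference of the members was 0.49 and that of all genes 0.01. The members were chosen with this comparison known, so nothing is read from these counts.

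**Figure D2:**
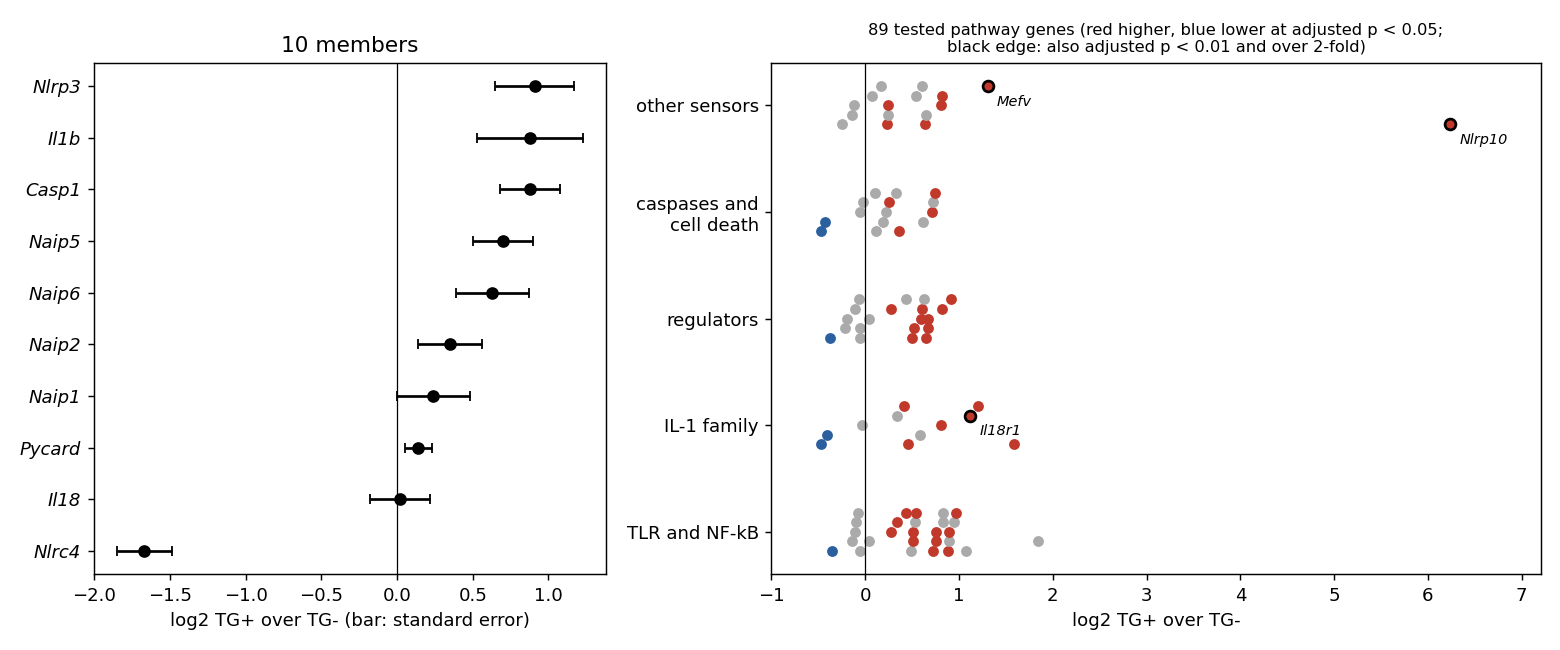
Left, the log2 difference (TG+ over TG-) of the 10 members with its standard error; right, that of the 89 tested genes of 5 pathway lists, 1 dot a gene, with genes at an adjusted p below 0.05 in red (higher) or blue (lower) and those past the full threshold edged in black. Nlrc4, at -1.67, is the only member below 0, and Nlrp10, at 6.24, lies far to the right of all other pathway genes.

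To compare genes with each other, the level per length was taken from the RPKM values that the authors deposited, averaged over the kidneys of a mouse. In TG- mice Pycard was at 4.29 ± 0.281 RPKM, and Nlrc4 (1.87 ± 0.224 RPKM) and Il18 (1.80 ± 0.179 RPKM) had values that overlapped (SD, n = 3). Casp1, at 0.793 ± 0.160 RPKM, overlapped with Il1b, at 0.582 ± 0.164 RPKM, and each of the Naip genes and Nlrp3 was at most 0.204 RPKM in every TG- mouse. In TG+ mice Nlrc4, at 0.569 ± 0.133 RPKM, stood below Il18 (1.79 ± 0.358 RPKM) and Casp1 (1.40 ± 0.223 RPKM), with Pycard at 4.60 ± 0.271 RPKM, and its values overlapped with those of Il1b (1.03 ± 0.463 RPKM). These levels rest on the gene lengths that the authors used. Scaled so that the median gene is at 1, the length implied by the RPKM was 4.03 times the annotated exon length for Nlrp3, 3.76 times for Naip2 and 0.37 times for Pycard, against 0.798 times for Nlrc4, 0.681 times for Il18, 1.27 times for Il1b and 1.00 times for Casp1. The overlaps of Nlrc4 with Il18 and with Il1b, the rank of Pycard and the order among Nlrp3 and the Naip genes would change with other lengths, so no order is read from them.

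The 2 kidneys of a mouse gave a further look at the spread, which the choice of genes did not use. In TG- mice the ratio of Nlrc4 between kidney 1 and kidney 2 lay between 0.932 and 1.03. In TG+ mice it was 0.675 (95% exact interval 0.420 to 1.07) in 43-29, 1.99 (1.41 to 2.85) in 43-49 and 1.33 (0.889 to 2.01) in 43-75. The highest TG+ kidney lay below 6.19 CPM, the lowest TG- kidney, but that gap belongs to the comparison known when the members were chosen. In 43-49 the kidneys held 109 and 49 reads, or 3.65 and 1.83 CPM, a difference beyond counting error. In the same mouse the ratio was 1.5 (interval 1.1 to 2.06) for Naip2 and 1.70 (1.06 to 2.76) for Naip5, and its summed macrophage and monocyte markers were 332 CPM in kidney 1 and 261 CPM in kidney 2. In the other TG+ mice that sum went against Nlrc4, with 356 and 313 CPM in 43-29 and 321 and 333 CPM in 43-75. The sum of the thick limb and distal tubule markers was higher in the kidney with more Nlrc4 in each TG+ mouse, with 2651 and 3964 CPM in 43-29, 4984 and 4351 CPM in 43-49, and 3829 and 3144 CPM in 43-75. The proximal tubule sum was likewise higher in that kidney, by less, with 37323 and 38198 CPM in 43-29, 35261 and 34675 CPM in 43-49, and 38937 and 37840 CPM in 43-75. The lymphocyte sum was higher there too, most of all in 43-49, with 22.9 and 14.1 CPM. In TG- mice these 3 sums were higher in the kidney with more Nlrc4 in 43-26 and 43-76 and lower in 43-50. The collecting duct and intercalated cell sum was lower in the kidney with more Nlrc4 in every mouse. In TG+ it was 647 and 627 CPM in 43-29, 561 and 627 CPM in 43-49, and 586 and 619 CPM in 43-75. The dendritic cell sum was lower there in 43-29 and the neutrophil sum in 43-75, and each was higher in the other TG+ mice. The part of these cells in the difference between kidneys was not tested. Over all 60 pairs of a member and a mouse, the interval left out a ratio of 1 in 5. For kidneys that do not differ, 95% exact intervals would do so in about 3 or fewer. The median ratio of the higher to the lower kidney was 1.16. The intervals cover counting error only.

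**Figure D3:**
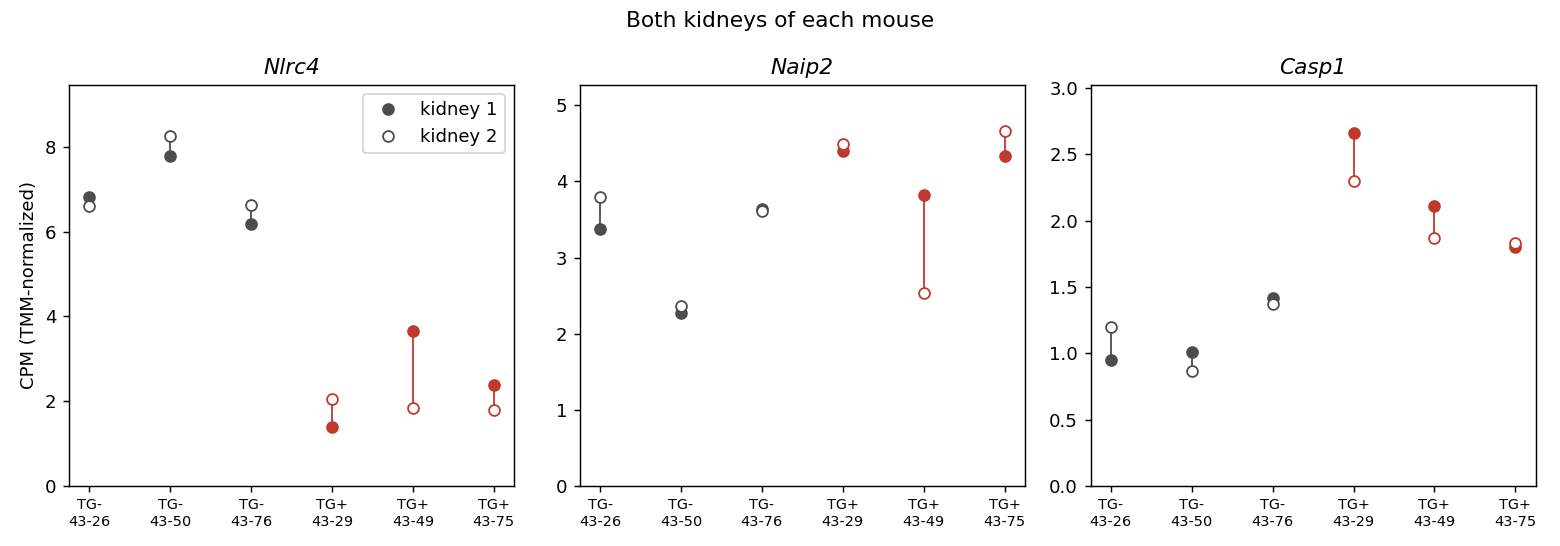
CPM of Nlrc4, Naip2 and Casp1 in kidney 1 (filled) and kidney 2 (open) of each mouse, joined by a line; grey is TG-, red TG+, and the vertical axes start at 0. For Nlrc4 the TG+ kidneys lie at or below 3.65 CPM and the TG- kidneys at or above 6.19 CPM, and the widest gap between kidneys for Nlrc4 and Naip2 is that of the TG+ mouse 43-49.

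Markers of cell types moved with the genotype and are given beside these genes. The summed level of 16 macrophage and monocyte markers was 333, 298 and 327 CPM in the TG+ mice 43-29, 43-49 and 43-75 and 225, 158 and 198 CPM in the TG- mice 43-26, 43-50 and 43-76. All 16 lay above 0 in log2 difference (median 0.72), and 10 were higher at an adjusted p below 0.05 (15.4% of all tested genes). The one with the highest mean CPM over the 6 mice, Csf1r, the receptor of a macrophage growth factor, was higher by 0.63 (adjusted p = 0.000661). Ly6c2, of inflammatory monocytes, passed the threshold at 1.26 (adjusted p = 0.00908). Upward 3.77% of all tested genes passed it, which is also the background for the dendritic cell markers. The summed level of 7 dendritic cell markers was 27.4 to 32.8 CPM in TG+ and 14.8 to 18.6 CPM in TG-, with Itgax, Xcr1 and Cd209a past the threshold at log2 differences of 1.12, 1.19 and 1.78 (adjusted p = 0.00114, 0.00675 and 0.00032) and Zbtb46, highest in mean CPM, at 0.44 (adjusted p = 0.037). None of the markers in either list was at 0 reads.

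The order of the mice within a genotype was compared with the macrophage sum. The TG- mouse 43-50 had the lowest macrophage sum of its group, and 7 of the 10 members were lowest there, namely Naip1, Naip2, Naip5, Naip6, Nlrp3, Casp1 and Il1b. In TG+ the mouse 43-49 had the lowest sum, and 7 members were lowest there too, among them Naip1, Naip2, Naip5, Nlrp3 and Il1b. Nlrc4 was the only member that was highest in both of these mice. The neutrophil sum was also lowest in these 2 mice, at 2.56 CPM in 43-49 and 1.94 CPM in 43-50. So was the sum of the collecting duct and intercalated cell markers, at 591 CPM in 43-49 and 533 CPM in 43-50. The dendritic cell sum was lowest in 43-50 within TG-, at 14.8 CPM, but highest in 43-49 within TG+, at 32.8 CPM, and the lymphocyte sum was lowest in neither. With 3 mice per genotype this is a description of the order, and the part of the marker levels in the members' differences was not tested.

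Nlrc4 moved in the direction of the proximal tubule markers instead. The 15 markers of the proximal tubule, the cells in which the transgene is expressed in TG+ mice, summed to 37805, 34918 and 38409 CPM in TG+ and to 47781, 50940 and 47674 CPM in TG-. All 15 lay below 0 (median -0.46), and 10 were lower at an adjusted p below 0.05 (10.9% of all tested genes). Of these, 1 passed the threshold, the organic anion transporter Slc22a6 (log2 difference -1.09, adjusted p = 4.82e-05), beside 0.211% of all tested genes. Kap, highest in mean CPM, was at -0.08 (adjusted p = 0.528). Nlrc4, at -1.67, was chosen with its difference known, so its size is not compared with those of the markers. The mouse with the most Nlrc4 had the highest sum of proximal tubule markers within TG- (43-50) and the lowest within TG+ (43-49). The sum of the thick limb and distal tubule markers was highest in these same mice, at 3852 CPM in 43-50 and 4676 CPM in 43-49, but its ranges in the genotypes overlapped. The sum of the collecting duct and intercalated cell markers was lowest in both, at 533 CPM in 43-50 and 591 CPM in 43-49. The part of these cell types in the level of Nlrc4 was not tested.

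**Figure D4:**
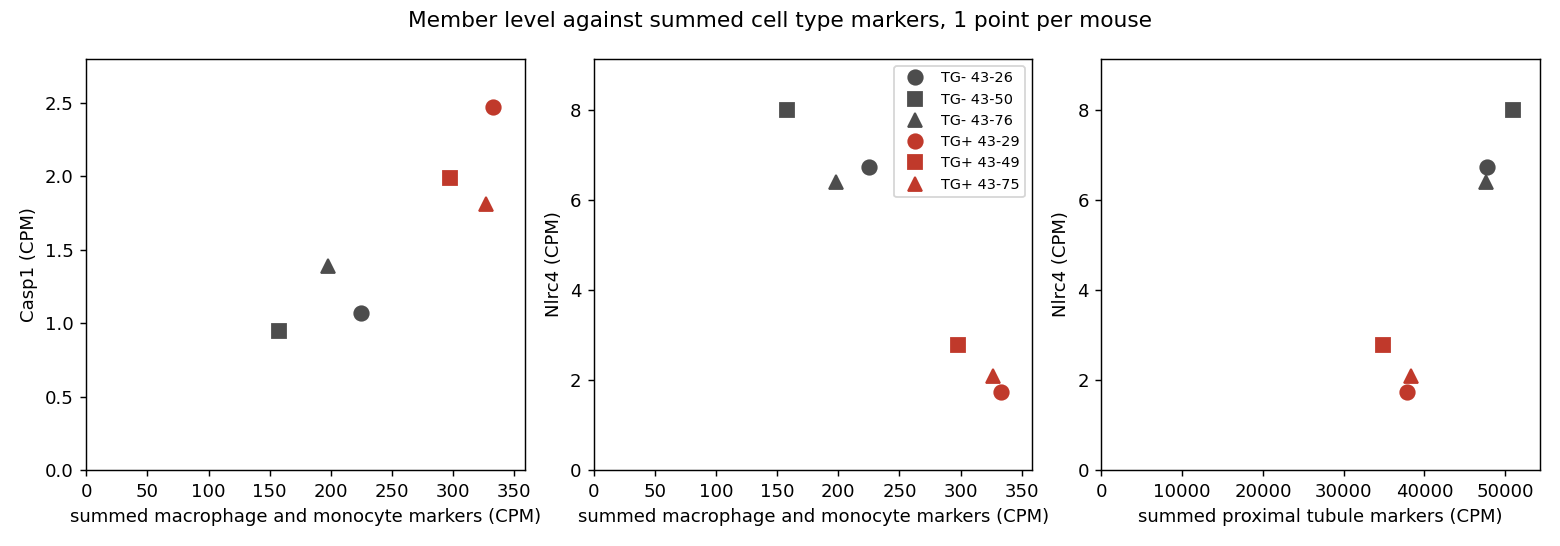
Casp1 and Nlrc4 (CPM, vertical axes) against the summed level of 16 macrophage and monocyte markers, and Nlrc4 against that of 15 proximal tubule markers (CPM, horizontal axes), 1 point per mouse, with grey for TG- and red for TG+. The TG+ mice lie at 298 to 333 CPM of macrophage markers with more Casp1 and less Nlrc4 than the TG- mice, which lie at 158 to 225 CPM.

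The genes next to Nlrc4 on chromosome 17 did not share its difference. Slc30a6, a zinc transporter on the other strand whose gene ends 1217 bases from that of Nlrc4, was at 14.9 ± 0.305 CPM in TG+ and 15.4 ± 0.932 CPM in TG- (SD, n = 3), a log2 difference of -0.04 (adjusted p = 0.694). Spast, which encodes the microtubule-severing protein spastin, was at 0.10 (adjusted p = 0.235), and Yipf4, on the far side, at -0.12 (adjusted p = 0.0944). Birc6, an inhibitor of apoptosis of very large size, was lower by a small amount, at -0.23 (adjusted p = 0.0183).

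Among the 16180 genes with a mean of at least 1 CPM, those most like Nlrc4 over the 6 mice by Pearson's r of log2(CPM + 1) were Pkd2 (polycystin-2, a channel whose loss gives polycystic kidneys), Vps13b, Dennd1a, Cbx6 and Ppp6r1, with r between 0.9951 and 0.9976. The 6 mice fall into 2 clusters by genotype, and 1590 genes had an r above 0.9, so a high r was common. The differences of these 5 genes were far smaller than that of Nlrc4. Pkd2, for example, stood at 268, 291 and 282 CPM in TG+ and at 360, 374 and 360 CPM in TG-, a log2 difference of -0.38 (adjusted p = 0.00241). By deviations from the genotype means, the most alike were Pex16, Fgfr3, Smim10l1 and Aplp2, with r between 0.9959 and 0.9984 and none with an adjusted p below 0.05 between genotypes. These values were picked as the highest among 16180 genes over only 6 mice, so high ones were likely and nothing is read from them. All points share the same libraries, and no p is given for these likenesses.

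The wider pathway was followed in 5 lists of 103 genes, members excluded, of which 101 were in the table and 89 were tested. Over the lists 3 genes passed the threshold upward and 0 downward, where the shares over all tested genes were 3.77% and 0.211%, so calls at the full threshold were about as frequent in the lists as among all genes. At an adjusted p below 0.05 alone 39 were higher and 6 lower, beside 15.4% and 10.9% of all tested genes, which are also the background of the counts for single lists that follow. The median log2 difference was 0.46, against 0.01 over all genes, and 66 of the 89 lay above 0. These lists and the marker lists above were drawn up with earlier results of these data known. Their counts and this shift are therefore a description. The lists hold many genes of myeloid cells, whose marker levels are given above, and the part of those cells was not tested.

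The sensors other than the members showed the largest single difference. Nlrp10, an NLR protein that lacks the leucine-rich repeats of its relatives, stood at 34.4, 11.4 and 24.4 CPM in TG+ and at 0.507, 0.158 and 0.266 CPM in TG-. The groups did not overlap, and the log2 difference was 6.24 (standard error 0.65, adjusted p = 0.000257), with the call kept in all 12 alternatives. Per length it was at 5.16 ± 2.54 RPKM in TG+ and 0.0788 ± 0.0398 RPKM in TG- (SD, n = 3). Nlrc4 was at 0.569 RPKM in TG+ mice, but the length used for Nlrp10 was not compared with its annotation, so no order is read. Mefv, which encodes the sensor pyrin, also passed (log2 difference 1.31, adjusted p = 0.00544), at levels below 0.8 CPM, but lost the call with DESeq2 (adjusted p = 0.012) and without any 1 of 5 mice. The sensors with the highest mean CPM among those that did not pass were Nlrp6, an epithelial NLR protein, at 17.5 ± 0.596 RPKM in TG+ and 19.5 ± 0.847 RPKM in TG- (log2 difference -0.12, adjusted p = 0.176), and the helicase Dhx33 (0.07, adjusted p = 0.358). In this list 7 of 16 tested genes were higher at an adjusted p below 0.05 and 0 were lower (15.4% and 10.9% of all genes). Among the 7 was Aim2, the sensor of DNA in the cytosol (0.82, adjusted p = 0.0416). Aim2 and Mefv, and below also Gsdmd, Spi1, Tnfaip3, Txnip, Lrrk2, Il18rap, Il1rn, Tlr4, Tlr9, Nfkb2, Relb and Myd88, were picked after their values were seen.

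The caspases and the genes of pyroptosis and cell death gave no call at the full threshold, with 4 of 15 tested genes higher and 2 lower at an adjusted p below 0.05 (15.4% and 10.9% of all genes), the lower share being near the background. Gsdmd, the pore-forming protein that caspase-1 cleaves, was at 6.25, 5.50 and 5.18 CPM in TG+ and at 4.15, 2.40 and 3.58 CPM in TG-. Each TG+ mouse lay above each TG- mouse (log2 difference 0.74, adjusted p = 0.0274). The gene with the highest mean CPM, Ninj1, which ruptures the membrane of dying cells, differed by -0.05 (adjusted p = 0.743), and Card10, a scaffold of NF-κB signalling, was lower, at -0.47 (adjusted p = 0.00326).

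Of 20 regulators of priming and activation, 10 were higher and 1 was lower at an adjusted p below 0.05 (15.4% and 10.9% of all genes), and none passed the full threshold. Spi1, encoding PU.1, was at 5.98, 5.13 and 5.48 CPM in TG+ and at 3.65, 2.89 and 2.84 CPM in TG- (log2 difference 0.82, adjusted p = 0.00405). Tnfaip3, which encodes the NF-κB inhibitor A20, was higher by 0.91 (adjusted p = 0.00368), and Txnip, a binding partner of thioredoxin, by 0.61 (adjusted p = 0.0164). Lrrk2, a kinase known to act on Nlrc4 in macrophages, stood at 184, 207 and 180 CPM in TG+ and at 239, 255 and 251 CPM in TG-, and was the 1 gene of this list that fell (log2 difference -0.38, adjusted p = 0.00597). The chaperone Hsp90ab1 and the protease Ctsb, highest in mean CPM, differed by -0.11 and -0.06 (adjusted p = 0.414 and 0.518).

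Of the interleukin-1 family, 6 of 11 tested genes were higher and 2 lower at an adjusted p below 0.05 (15.4% and 10.9% of all genes). Il18r1, a chain of the receptor of interleukin-18, stood at 1.6, 1.83 and 1.31 CPM in TG+ and at 0.760, 0.648 and 0.778 CPM in TG-, and passed the threshold (log2 difference 1.12, adjusted p = 0.00483), though it lost the call without any 1 of 5 mice. Its partner Il18rap was higher by 0.81 (adjusted p = 0.0168), while the ligand gene Il18 was at 0.02. Il1rn, the receptor antagonist of interleukin-1, was higher by 1.59 (adjusted p = 0.0493) with groups that overlapped. Sigirr, an inhibitory receptor and highest in mean CPM, fell from between 81.6 and 87.2 CPM in TG- to between 59.9 and 62.5 CPM in TG+ (log2 difference -0.47, adjusted p = 0.000697), and Il1rap, the accessory chain of the interleukin-1 receptor, fell by 0.41 (adjusted p = 0.00608).

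Of 27 tested genes of toll-like receptor and NF-κB signalling, which prime the transcription of Nlrp3 and Il1b, 12 were higher and 1 was lower at an adjusted p below 0.05 (15.4% and 10.9% of all genes). Tlr4, the receptor of lipopolysaccharide, was at 6.09, 6.84 and 6.71 CPM in TG+ and at 4.66, 3.10 and 3.83 CPM in TG- (log2 difference 0.76, adjusted p = 0.00934), and Tlr9, a receptor of DNA, was higher by 0.97 (adjusted p = 0.00776). The NF-κB subunits Nfkb2 and Relb were higher by 0.54 and 0.88 (adjusted p = 0.00425 and 0.00726). The adaptor Myd88, at -0.06 (adjusted p = 0.498), and the genes with the highest mean CPM among those not past the full threshold, Irak1 at 0.04 (adjusted p = 0.583) and Traf6 at -0.10 (adjusted p = 0.282), did not pass the test.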

How the data were processed

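RNAseq of kidney cortex from 3 TG+ and 3 TG- mice was analysed. Reads were 51-bp single-end and, by the study's methods, were processed mainly with the Tuxedo tools. The submitters' processing notes name the mouse build mm9, and the counter and the handling of strand are not given in the sources used here. The authors deposited raw read counts per Ensembl gene for each library. They also deposited RPKM values, scaled by a method the header calls BUQ, which were proportional to the count plus 1. The 12 columns of log2 RPKM, and the columns of fold changes, p-values and q-values of the authors' own comparison, were not used.

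Counts were summed over the kidneys of a mouse, filtered with filterByExpr, scaled by TMM (factors 0.944 to 1.07) and fitted in edgeR 4.0.16 under R 4.3.3 (quasi-likelihood test), and p-values were adjusted by Benjamini and Hochberg's method across 19399 genes. The procedure was tested on simulated data. Alternatives were DESeq2 1.42.0, upper-quartile scaling, library size alone, no filter, each kidney as a library, a block for the pairs named below, each mouse left out in turn and other limits on p and fold. Symbols, positions and transcripts came from GENCODE M21 (GRCm38), another build than that of the counts, matched by Ensembl identifier for 32642 of 37681 genes. The members and the lists were chosen with earlier results of these data known. Named by rule were, beside the members, the genes of each pathway list that passed the threshold at 1 CPM or more, the 2 highest in mean CPM over the 6 mice that did not, the marker highest in mean CPM and the called markers, and the 5 genes most like Nlrc4 by each measure, 1 of which is not reported here. The genes next to Nlrc4, Mefv and the genes stated in the text were chosen after their values were seen. The mice are separate animals, which the name of the deposited table lists in 3 pairs of a TG+ and a TG- mouse, and the sources used here do not say what a pair shares.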

Additional observations from a re-analysis of the deposited data

How the results depend on the processing

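With 3 mice per genotype an exact permutation test of a single gene cannot go below 0.1, so calls rest on the fit across all genes. In each of 12 alternatives Nlrc4 lay below 0 and the other members, except Il18 in 2, lay above 0, and Pycard moved to 0.25 with library size alone. Genes called higher numbered 732, and 469 to 633 with a mouse left out (469 without TG- 43-76), and genes called lower numbered 41, and 29 to 50 with a mouse left out or 22 with library size alone. Without a fold limit the numbers were 2982 and 2105 at an adjusted p below 0.05 and 1534 and 824 below 0.01. Of the pathway genes 3 were called higher, and 5 with library size alone, 6 with each kidney as a library, 1 to 4 with a mouse left out (1 without TG+ 43-29, TG- 43-50 or TG- 43-76), and 39 and 11 without a fold limit at 0.05 and 0.01. Called lower were 0, and 6 and 4 without a fold limit, and 0 with any mouse left out. The cause of these shifts was not tested. Deviations of the mice listed as pairs correlated at 0.363, 0.309 and -0.0192, so a pairing was not established, and a replicate block on these pairs gave 779 higher, 46 lower and 2 higher pathway genes, with Mefv lost (adjusted p = 0.0111).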

Other observations

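Other cell types were followed by their markers. Of 10 lymphocyte markers all 10 lay above 0 in log2 difference, with a summed level of 14 to 18.7 CPM in TG+ and 6.63 to 8.11 CPM in TG-. Cd79a and Cd79b, of the B cell receptor, and Cd3e and Cd4, of T cells, passed the threshold at 2.25, 1.23, 1.17 and 1.19 (adjusted p = 0.00107, 0.00544, 0.00243 and 0.0081, edgeR's quasi-likelihood test). Upward 3.77% of all tested genes passed it. Cd8a, highest in mean CPM over all 6 mice though not within TG+, was at 0.14 (adjusted p = 0.544). Of 10 neutrophil markers 4 had enough reads to be tested, none was called, S100a9, highest in mean CPM, was at 0.76 (adjusted p = 0.389), and Ly6g, which defines the cells, had 0 reads. Their sums, 2.56 to 7.67 CPM in TG+ and 1.94 to 4.43 CPM in TG-, overlapped.

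Segments past the proximal tubule gave no call, where 3.77% of all tested genes passed the threshold upward and 0.211% downward. The 6 markers of the thick limb and distal tubule summed to 3367 to 4676 CPM in TG+ and 3726 to 3852 CPM in TG-, with Umod, highest in mean CPM, at 0.06 (adjusted p = 0.795). The 10 markers of the collecting duct and intercalated cells summed to 591 to 637 CPM in TG+ and 533 to 609 CPM in TG-. The water channel Aqp2, highest in mean CPM, was at 0.34 (adjusted p = 0.103). Of the 10, 1 was lower at an adjusted p below 0.05, the water channel Aqp3 (-0.19, adjusted p = 0.0473), near the 10.9% of all tested genes.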
